A study of Mus musculus with 4 samples.

Results

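The collagen genes of the mouse were followed in whole thymus through every probe of an Illumina bead array whose target name is COL, a number, A and a number. The rule took 80 of the 45281 probes on the array, which read 38 collagen genes. The name of the ceramide transporter gene Col4a3bp does not end after the chain number, and its probes were left out. By textbook class the genes comprised 11 fibrillar collagens with 23 probes, 6 chains of basement membrane collagen IV with 11 probes, and 21 other collagens with 46 probes.

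Total RNA came from whole thymus of C57BL/6 mice of 2 genotypes, miR-181d transgenic and miR-181d knockin, with 2 arrays each and 1 sample per array. The study asks how gene expression differs between these lines. The sources used here give neither the promoter of the transgene, nor the construction and direction of the knockin allele, nor the age of the mice, and no wild-type thymus was analysed, so each value only sets one line beside the other. The labels number the samples of a group without calling them separate mice, so p-values measure the spread between these samples, which may be partly technical.

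Collagens are secreted or membrane-anchored trimers whose chains wind into a triple helix. Fibrillar collagens such as types I, III and V pack into the banded fibres of connective tissue, collagen IV forms the sheet-like network of basement membranes, and collagen VI forms beaded microfilaments at the border between these structures. In the thymus they belong to the capsule, the septa, the vessel walls and the epithelial framework, whereas thymocytes, which make up most of the organ, are not known as a main source.

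The 4 arrays read tissue dominated by thymocytes. Lck, the kinase of the T cell receptor pathway, gave a signal of 16019 to 18784 and Cd8a, the coreceptor chain, one of 4532 to 6035, and all 6 thymocyte markers lay above background on every array. Median signal over all probes was 145.8 and 140.5 on transgenic replicates 1 and 2, and 141.7 and 145.7 on knockin replicates 1 and 2. A probe was taken as above background on an array when its signal passed the commonest signal of that array by 3 SDs, which set limits of 151.4, 146.7, 149.1 and 152.1. Xist, the RNA that coats the silenced X, read 4366, 4392 and 4570 on the first 3 arrays and 129.5 on knockin replicate 2, and the Y-linked Ddx3y read 3519 on that array against 484.4 to 553.7, so the sample with that label carried a male pattern and the others a female one. The array letters in the labels are A and B for the transgenic and E and F for the knockin samples, so genotype and position on the slide cannot be told apart.

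The promoters of collagen IV genes are shown first because the 2 bright chains of this class, Col4a1 and Col4a2, had the same high and low arrays. RefSeq windows of 300 bases at the gene start, on build GRCm38.p6, were found for 31 of the 38 genes. The genes Col4a1 (minus strand, chr8:11312777-11313076) and Col4a2 (plus strand, chr8:11312555-11312854) stand head to head, and their windows share 78 bases, which are in capitals below and read as the reverse complement of each other. The window of Col6a1 (minus strand, chr10:76725995-76726294), the chain of collagen VI with the largest difference between arrays, is set beside them and has no capitals because it held none of the motifs searched.
Col4a1: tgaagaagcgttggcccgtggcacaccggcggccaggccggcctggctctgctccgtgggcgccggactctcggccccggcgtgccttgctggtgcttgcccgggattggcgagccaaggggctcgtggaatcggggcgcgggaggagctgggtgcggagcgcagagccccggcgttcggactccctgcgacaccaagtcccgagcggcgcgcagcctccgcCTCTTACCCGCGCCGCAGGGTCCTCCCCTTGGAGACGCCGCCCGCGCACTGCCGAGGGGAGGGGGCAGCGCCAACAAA
Col4a2: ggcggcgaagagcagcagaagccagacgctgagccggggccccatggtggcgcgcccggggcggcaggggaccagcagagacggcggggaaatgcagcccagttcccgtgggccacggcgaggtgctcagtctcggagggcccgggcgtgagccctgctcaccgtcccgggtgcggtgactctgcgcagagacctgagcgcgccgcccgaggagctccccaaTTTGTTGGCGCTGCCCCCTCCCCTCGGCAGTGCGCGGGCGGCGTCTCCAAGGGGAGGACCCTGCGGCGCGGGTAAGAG
Col6a1: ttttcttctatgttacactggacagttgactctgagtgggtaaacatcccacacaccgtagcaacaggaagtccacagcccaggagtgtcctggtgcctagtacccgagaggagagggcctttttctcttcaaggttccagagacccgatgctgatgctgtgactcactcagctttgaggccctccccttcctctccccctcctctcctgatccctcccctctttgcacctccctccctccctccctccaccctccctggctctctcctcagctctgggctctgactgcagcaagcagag
GC content was 74.0% and 73.7% in the collagen IV windows and 57.3% in that of Col6a1. The GC box, searched as GGGCGG on both strands, occurred 1 time in the Col4a1 window, 3 times in that of Col4a2 and in none of the Col6a1 window. Over all 34 collagen windows 20 held it (58.8%), against 35.7% of 32851 promoter windows of the same length. The TATA box, searched as TATAAA, was in 14.7% of the collagen windows and 13.6% of all windows, and the CCAAT box, searched as CCAAT, in 35.3% and 37.4%, both on either strand. Windows of Col4a5 and Col4a6, another pair of collagen IV genes, shared 0 bases.

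Of the 38 genes, 16 gave a signal above background on all 4 arrays with their brightest probe, 6 on 1 to 3 arrays and 16 on none. Among the 80 probes 48 stayed at background throughout, with signals of 116.3 to 150.1. Levels of different probes were not set against each other, since each probe binds with its own efficiency.

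**Figure D1:**
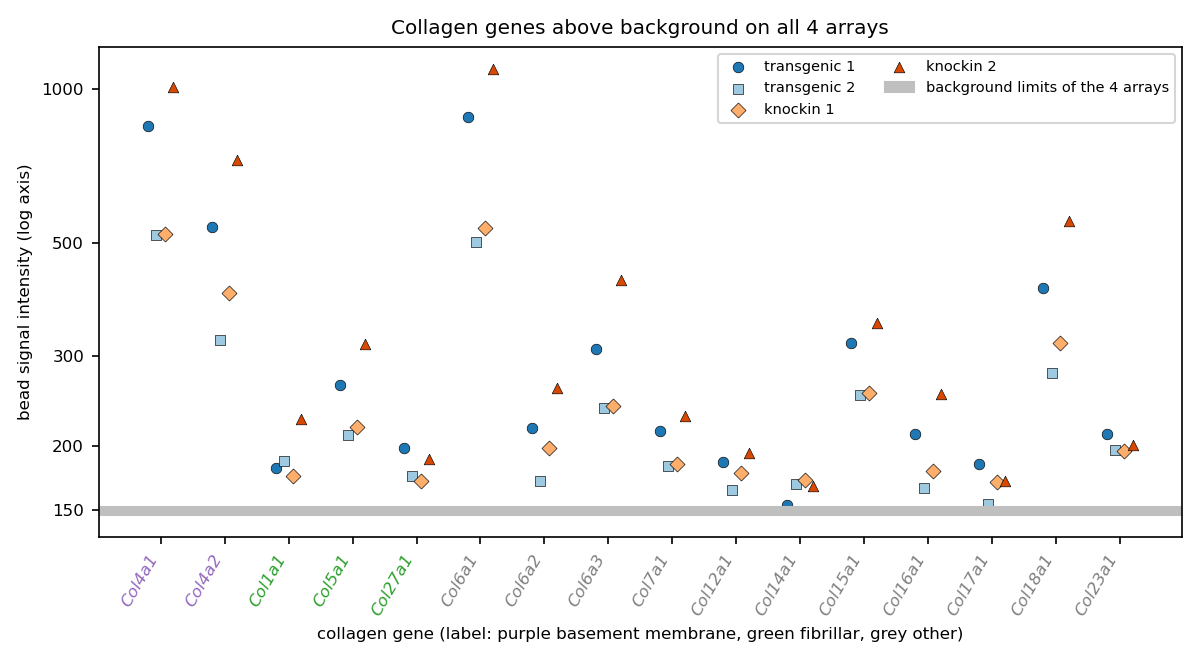
Bead signal intensity (log axis) of the 16 collagen genes above background on all 4 arrays, 1 point per array, with the grey band marking the background limits of 146.7 to 152.1. For Col4a1, Col4a2, Col6a1 and Col18a1 knockin replicate 2 is highest and transgenic replicate 1 second, while Col14a1 and Col23a1 lie close together on all arrays.

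Of collagen IV, only the probes of its ubiquitous chains were above background on all arrays, and a probe at background does not show that its chain is absent. Col4a1, which encodes the alpha1 chain, gave signals of 847.9 and 518.7 on transgenic replicates 1 and 2 and of 521.7 and 1013 on knockin replicates 1 and 2. Each genotype thus held 1 high and 1 low array, and the genotypes overlapped. The ratio of the raw signals was 1.64 between the transgenic arrays and 1.94 between the knockin arrays. Col4a2, the alpha2 chain that joins alpha1 in the same trimer, read 537.3, 322.2, 398.3 and 726.9 in the same order. Its high and low arrays were those of Col4a1, with ratios of 1.67 and 1.83. The tissue-restricted chains Col4a3, Col4a4 and Col4a6 were at background on every array, and Col4a5 was above it on 1 array with signals of 142.7 to 150.8.

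Collagen VI, whose 3 main chains assemble into a microfilament, followed the order of collagen IV. Col6a1 gave signals of 884.2, 502.0, 534.2 and 1095, so that transgenic replicate 1 exceeded replicate 2 by 1.76-fold and knockin replicate 2 exceeded replicate 1 by 2.05-fold. A further bright probe of Col6a1 read 424.9, 306.0, 361.5 and 636.6 and had the same high arrays, while the third was at background. Col6a2 read 217.3, 170.6, 198.2 and 260.0 on its brightest probe, and Col6a3, the largest chain, read 309.9, 237.8, 239.9 and 422.9. On their brightest probes all 3 chains were highest on knockin replicate 2 with transgenic replicate 1 next. A second probe of Col6a2, above background on 3 arrays, read 153.2, 146.7, 143.6 and 152.9. Its normalised differences were log2 -0.0017 within the transgenic pair (replicate 1 minus 2) and 0.073 within the knockin pair (replicate 2 minus 1).

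Further collagens of the basement membrane zone had the same high arrays. Col18a1, a multiplexin that is the source of endostatin, read 408.1, 278.4, 319.1 and 551.7, ratios of 1.47 within the transgenic and 1.73 within the knockin pair. Its relative Col15a1 read 317.9, 252.2, 253.8 and 348.8. Col7a1, which forms the anchoring fibrils below stratified epithelia, read 214.1, 182.9, 184.4 and 228.7. For all 3 genes knockin replicate 2 was highest and transgenic replicate 1 second.

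Fibrillar collagens showed no single order over the arrays. Col1a1, the main chain of the most abundant collagen of the body, read 180.8, 186.7, 174.9 and 225.6 in the order used above, high on knockin replicate 2 alone. Col3a1, the chain of reticular fibres, read 147.5, 140.4, 151.2 and 175.6 and passed background on the knockin arrays alone. Col1a2, the partner of Col1a1 in the collagen I trimer, stayed near the limit with 148.8, 135.5, 147.0 and 154.1, and passed it on 1 array. Col5a1, which governs fibre width, read 263.1, 210.1, 218.5 and 317.3 and was the fibrillar gene above background on all arrays that was highest on knockin replicate 2 and next on transgenic replicate 1, as were collagens IV and VI. Col27a1, known from cartilage, was highest on transgenic replicate 1, with 198.7, 174.4, 171.0 and 188.9. Col2a1 and Col11a2, also cartilage collagens, reached 155.0 at most on their brightest probes and passed background on 2 arrays and 1 array. Col5a2, Col5a3, Col11a1 and Col24a1 were at background on all arrays.

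Fibril-associated and transmembrane collagens gave mixed patterns. Col16a1 read 211.1, 165.2, 179.0 and 252.7, in the order of collagen IV. Col12a1 read 186.0, 164.1, 177.0 and 193.6 on its brightest probe, a narrower range. Col14a1, which coats fibril surfaces, went the opposite way in both genotypes, with transgenic values of 153.2 and 168.5 and knockin values of 172.0 and 166.7. Col17a1, the hemidesmosomal collagen of basal epithelial cells, read 184.3, 154.0, 170.4 and 170.9, and Col23a1 read 211.7, 196.9, 196.0 and 200.6. On these brightest probes both transmembrane collagens were highest in raw signal on transgenic replicate 1, and the knockin arrays lay close together. Other bright probes of Col17a1 differed from this. One read 179.2, 154.6, 160.3 and 167.7, with knockin replicate 2 next to transgenic replicate 1. A dimmer one read 161.1, 143.2, 145.6 and 163.8, highest on knockin replicate 2. Col9a1, a fibril-associated collagen of cartilage, passed background on the transgenic arrays alone, with 154.3 and 148.1 there against 145.3 and 134.8. Of the remaining genes Col8a1, Col8a2, Col9a2, Col9a3, Col10a1, Col13a1, Col19a1 and Col28a1 were at background on every array, as was the brightest probe of Col25a1, of which a dimmer probe passed on transgenic replicate 1 alone (159.2).

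**Figure D2:**
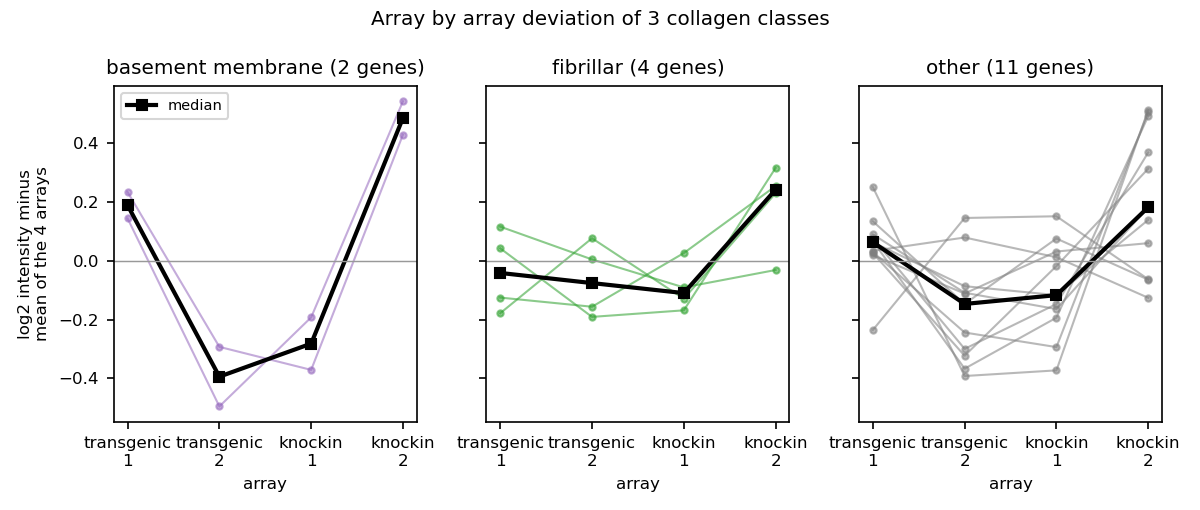
Normalised log2 intensity minus the mean of the 4 arrays, by class, for the 17 collagen genes whose mean signal passed the mean background limit. Thin lines join the values of 1 gene and squares mark the median of these genes in each class. The basement membrane medians are 0.19, -0.39, -0.28 and 0.49 from transgenic replicate 1 to knockin replicate 2, whereas the fibrillar medians on the first 3 arrays lie between -0.11 and -0.041.

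After background correction and quantile normalisation, the classes were compared array by array over the brightest probe of the 17 genes whose mean signal passed the mean background limit of 149.8. The median difference of transgenic replicate 1 from replicate 2 was log2 0.58 for the 2 basement membrane genes, 0.27 for the 11 other genes and 0.071 for the 4 fibrillar genes. That of knockin replicate 2 from replicate 1 was 0.77, 0.33 and 0.29. Over all 19560 probes with a mean signal above that limit the medians were 0.007 and -0.005. The classes overlapped gene by gene, and with 2 genes in one of them and 4 in another no test between classes was made. The 3 collagen VI genes, counted among the other collagens, had medians of 0.35 and 0.80. Mean signal was 725 and 496 for Col4a1 and Col4a2 but only 154 (Col3a1) to 252 (Col5a1) for the fibrillar genes. The offset of the background correction understates differences of dim probes, and the part of brightness in the order of the classes was not tested.

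Knockin replicate 2 was the highest array for 13 of these 17 collagen genes (76.5%), and for 12 of the 16 above background on all arrays, against 25.0% of all probes above the limit. Knockin replicate 2 and transgenic replicate 1 both exceeded the other arrays for 10 of the 17 genes (58.8%), 7 of them in the class of other collagens, 2 of collagen IV and 1 fibrillar, against 22.1% of all such probes. Transgenic replicate 1 exceeded replicate 2, and knockin replicate 2 exceeded replicate 1, each by at least log2 0.3, for 6 genes (35.3%). The share of all such probes was 2.25%, and both size and direction were chosen after the values were seen. The 6 genes were Col4a1, Col4a2, Col6a1, Col6a2, Col16a1 and Col18a1, each on its brightest probe. Over the 80 collagen probes the transgenic and the knockin difference correlated at r = 0.515, a description across probes that share the same 4 arrays, beside r = 0.225 over all probes. Over the bright probes it was 0.737 for the 17 collagen genes and 0.325 for all probes. Raw median signal over all probes was also higher on these arrays, at 145.8 and 145.7 against 140.5 and 141.7, and both carry an end letter among the arrays used. The part of position on the slide or of overall signal in this pattern was not tested. The male pattern was seen on knockin replicate 2 alone, so sex cannot be told apart from that sample, and its part was not tested.

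**Figure D3:**
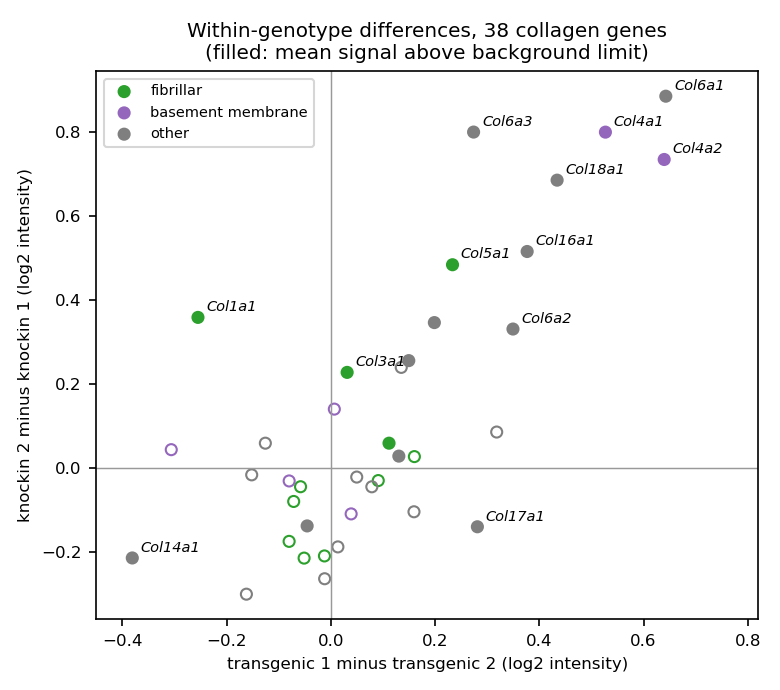
Difference in normalised log2 intensity between the transgenic arrays (x axis, replicate 1 minus replicate 2) and between the knockin arrays (y axis, replicate 2 minus replicate 1) for the brightest probe of 38 collagen genes, filled where the mean signal passed the background limit. Col6a1 lies at 0.64 and 0.89 and Col4a1 at 0.53 and 0.80 in the upper right, and Col1a1 stands apart at -0.26 and 0.36.

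No collagen gene was called between transgenic and knockin thymus. By limma with Benjamini-Hochberg adjustment over all probes at 0.05, 0 of 80 collagen probes passed, against 0.0795% of all probes (36 of 45281), and the lowest adjusted p was 0.9996. At an unadjusted p under 0.05 there were 3 collagen probes (3.75%) against 4.63% of all probes: 1 of Col3a1 and 2 of Col4a6, the last at background on every array. Of the 38 genes 27 were lower and 11 higher in transgenic thymus on their brightest probe, with a median log2 change of -0.068 against 0.001 over all probes. Without knockin replicate 2 the median was 0.011, so its sign rested on that array, the one with the male pattern.

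In normalised intensity the larger within-genotype difference was above the difference of the genotype means for 15 of the 17 bright genes (88.2%), close to the 79.4% of all probes above the limit. The normalised values of the genotypes did not overlap for 4 (23.5%), against 31.3% of all such probes. Those 4 were Col3a1 and Col12a1, lower in both transgenic arrays, and Col27a1 and Col23a1, higher in them, and for all but Col3a1 the raw signals overlapped. A further bright probe of Col12a1 overlapped in normalised values, with a change of -0.045. Col3a1 passed the mean limit only through the knockin arrays, where it is high, and of the 16 genes above background on all arrays 3 did not overlap. Normalised intensity of Col4a1 was 9.26 ± 0.37 in transgenic and 9.32 ± 0.57 in knockin thymus (SD, n = 2 each, log2), a change of -0.058 with a limma 95% interval of -0.60 to 0.48. Col6a1 was 9.26 ± 0.45 and 9.40 ± 0.63, a change of -0.14 with an interval of -0.74 to 0.46. Col1a1 was 6.91 ± 0.18 and 7.01 ± 0.25, a change of -0.10 with an interval of -0.42 to 0.22. These intervals leave room for differences in either direction. Col3a1 was 6.30 ± 0.022 and 6.58 ± 0.16, a change of -0.28 (SE 0.113, limma unadjusted p = 0.0328, adjusted p = 0.9996), and its second probe had a value of -0.090.

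The class medians of the genotype change were -0.20 for basement membrane, -0.12 for fibrillar and -0.092 for other bright collagens, and each turned with single arrays. The fibrillar median was -0.10 without Col3a1. Without knockin replicate 2 they were 0.18, 0.085 and 0.043, and without transgenic replicate 2 the basement membrane median was 0.087. In whole tissue, fewer cells of a type and less RNA per cell cannot be told apart, and the offset of the background correction understates changes of dim probes.

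Genes that process or accompany collagens were not called between genotypes either. Of 53 genes for processing enzymes, fibril partners, proteases and receptors 52 were measured, and all 15 basement membrane partners. Over these 67 genes 0 passed by limma after adjustment, 30 were higher and 37 lower in transgenic thymus and the median was -0.027. At an unadjusted p under 0.05 were Lamb2, a laminin chain, at 0.28, the collagen receptor Ddr1 at -0.29, the collagenase Mmp13 at -0.29 and the laminin chain Lamc3 at 0.24, with Loxl2 at 0.19 and Mrc2 at 0.20 next in order of p. Lamc3 and Loxl2 were at background on all arrays.

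Array by array, basement membrane partners had the order of collagen IV and several fibril partners did not. Of the 10 partners above the mean limit, 8 were higher on transgenic replicate 1 and knockin replicate 2 than on the other arrays, and of the 40 processing and fibril partners above it 13 were, beside the 22.1% given above for all probes. Hspg2, the proteoglycan perlecan, read 380.4, 283.3, 269.0 and 386.4, and Lama3, a laminin chain of epithelial basement membranes, read 562.6, 402.9, 400.3 and 668.9. Nid1, which links laminin to collagen IV, read 173.3, 184.6, 178.3 and 212.0 and was an exception. Bgn, the fibril-binding proteoglycan biglycan, read 1090, 567.9, 734.7 and 1402, as wide a range as collagens IV and VI. Its relative Dcn, decorin, read 3172, 4198, 3624 and 4967, with transgenic replicate 1 lowest. Serpinh1, the collagen chaperone of the endoplasmic reticulum, read 987.5, 845.5, 895.6 and 1278. Hspg2, Lama3, Nid1, Bgn, Dcn and Serpinh1 were picked for mention after their values were seen.

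**Figure D4:**
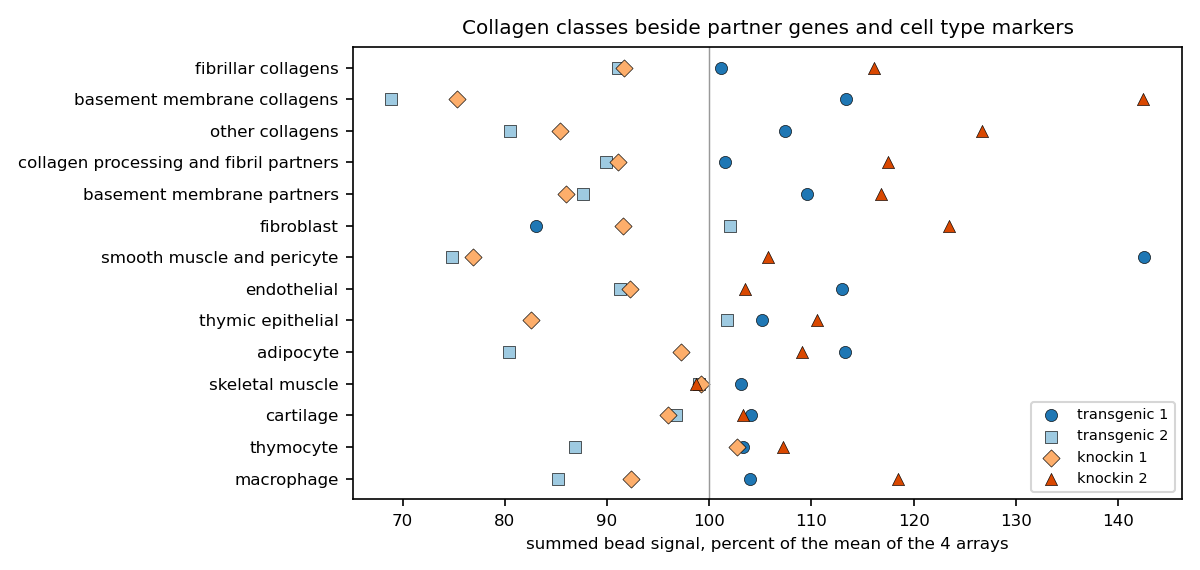
Summed raw bead signal, not normalised, of the collagen classes, of partner genes and of cell type marker lists. Values are given for each array in percent of the mean of the 4 arrays. Basement membrane collagens span 68.8% to 142%, fibroblast markers are lowest on transgenic replicate 1, and thymocyte markers lie between 86.8% and 107%.

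Marker lists of other cell types varied among the arrays to different degrees. Their sums are of raw signal without normalisation, and median raw signal over all probes was higher on transgenic replicate 1 and knockin replicate 2. Summed signal of 5 smooth muscle and pericyte markers was 3607 and 2674 on transgenic replicate 1 and knockin replicate 2 and 1893 and 1945 on the others. Most of it came from Acta2, smooth muscle actin, at 2664, 1095, 1187 and 1725, while Tagln and Cspg4 each passed background on 2 arrays. The members disagreed. Myh11 read 362.2, 253.9, 236.8 and 394.1, with the same high arrays as Acta2. Rgs5, above background on every array, read 260.7, 249.2, 232.8 and 234.8, higher on both transgenic arrays than on the knockin arrays. The 8 fibroblast markers, led by Dcn, summed to 4874, 5987, 5374 and 7244, lowest on transgenic replicate 1, and Pdgfra read 189.5, 192.8, 170.3 and 243.6. Dcn and Lum are also members of the fibril partner list. Between genotypes Fbln1 changed by log2 -0.60 (limma unadjusted p = 0.00095, adjusted p = 0.33). Pi16 went the other way, by 0.38 (limma unadjusted p = 0.038, adjusted p = 0.9996), and none of the 8 was called. The 5 endothelial markers summed to 1602, 1294, 1308 and 1467, with 4 above background on every array. The brightest, Pecam1, changed by log2 0.31 between genotypes (limma unadjusted p = 0.018, adjusted p = 0.96). Cldn5, Tek and Cdh5 went the other way, by -0.20, -0.087 and -0.12, and Kdr had a value of 0.042. The 5 thymic epithelial markers, led by Krt8, summed to 7340, 7106, 5762 and 7720, with Foxn1 and Epcam at background. In normalised intensity, transgenic replicate 1 was below replicate 2 for Krt8 (log2 -0.15) and Psmb11 (-0.32) and above it for Krt5 (0.037).

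Of the remaining lists, 5 adipocyte markers summed to 5234, 3717, 4494 and 5041, with Plin1 and Fabp4 at background. The 3 macrophage markers summed to 1700, 1394, 1511 and 1938, and their members disagreed. Cd68 read 679.8, 373.2, 523.7 and 761.1, C1qa 645.8, 599.1, 560.1 and 732.8, and Adgre1 374.5, 421.9, 426.8 and 444.0, lowest on transgenic replicate 1. The 6 thymocyte markers summed to 33634, 28273, 33427 and 34890, with Lck the largest part. Skeletal muscle markers held none of 5 above background on all arrays, and of 3 cartilage markers Acan was at background. The part of these cell types in the collagen values was not tested.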

How the data were processed

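Whole thymus RNA was read on Illumina MouseWG-6 bead arrays, 2 transgenic and 2 knockin. Per the file headers, the deposited table was written by GenomeStudio 1.9.0 without normalization and holds average bead signal intensity, and it lists neither control probes nor a detection p-value. The authors' processed value table was not used here, because its probe identifiers could not be paired with collagen names. Groups came from the sample titles, and arrays were matched by the array name in the labels.

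Since neqc needs detection p-values or control probes, normexp background correction (offset 50), log2 and quantile normalization of all probes were used. The groups were compared with limma 3.58.1 in R 4.3.3 on all 45281 probes, two-sided, Benjamini-Hochberg adjusted over all of them at 0.05, after a test on simulated data. The precision is limited by the number of arrays. The brightest probe stood for a gene. Every collagen gene above background on any array is named, and of the partner list the 6 smallest p. Members and lists were chosen with earlier results of these data known. 1 marker list is not reported here. Promoter sequences and symbols came from RefSeq tables of GRCm38.p6. Alternatives changed the background correction, scaling, priors, block, filter, class membership, probe choice and arrays.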

Additional observations from a re-analysis of the deposited data

How the results depend on the processing

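By limma no collagen probe passed an adjusted p of 0.1 in the fit reported, nor one of 0.05 under the alternatives run, while 3 had an unadjusted p under 0.05 in the fit reported. With 1 array left out the lone array of its group is assumed to vary like those of the other group, so these fits say little about stability. Over the whole array 36 probes passed, 3 without background correction, 70 with an offset of 16, 2 with median scaling, 112 with robust priors and an intensity trend, and 24 to 88 with 1 array left out. With the replicate number as a block 38 passed, and 0 collagen probes. Same-numbered arrays did not deviate together (r = -0.40 over 9057 bright probes), and with the numbers crossed, a pairing added after seeing the data, 364 probes and 0 collagen probes passed. That pairing sets arrays A and F against B and E, so it is also the split of end against inner array letters. It adjusts the genotype comparison, and the part of position in the collagen pattern was not tested by it.

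The collagen median ranged from -0.081 to 0.011 with 1 array left out and was -0.13 with an offset of 16. The fibrillar median ranged from -0.34 to 0.085 (-0.34 without knockin replicate 1), the basement membrane median from -0.59 to 0.18, the median of other collagens from -0.19 to 0.043 and that of the partner list from -0.12 to 0.036. With median scaling the basement membrane differences were 0.78 (transgenic) and 0.97 (knockin). Those of other collagens were 0.37 and 0.49 with median scaling, 0.33 and 0.41 with an offset of 16, and 0.17 and 0.23 without background correction. Basement membrane collagens kept the largest class median under each of these settings. The authors' value table was not run.

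Of 261 values of 22 named genes under alternatives, 239 kept direction and side of the threshold and 22 changed sign, none past the threshold. With 1 array left out the log2 change ranged from -0.46 to 0.34 for Col4a1, -0.72 to 0.015 for Col4a2, -0.085 to 0.020 for Col4a5, -0.28 to 0.076 for Col1a1, -0.39 to 0.093 for Col5a1, -0.18 to 0.026 for Col11a2, -0.58 to 0.30 for Col6a1. It ranged from -0.61 to 0.18 for Col6a3, -0.15 to 0.10 for Col7a1, -0.29 to 0.099 for Col14a1, -0.19 to 0.15 for Col15a1, -0.49 to 0.035 for Col16a1, -0.15 to 0.13 for Col17a1, -0.64 to 0.043 for Col18a1. The highest value came without knockin replicate 2 for Col4a1, Col4a2, Col1a1, Col5a1, Col6a1, Col6a3, Col7a1, Col15a1, Col16a1 and Col18a1. With cyclic loess Col17a1 had a value of 0.00012. The cause was not tested. Dim probes limit the reading, since 48 of 80 collagen probes were not above background on any array.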
